A study of Homo sapiens and Mus musculus with 8 samples.

Results

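The genes described here build and coat the microvilli of the intestinal brush border. They are 10 genes of the 60483 in the deposited count table, taken by symbol through their Ensembl identifiers: VIL1, ESPN, EZR, MYO1A, CDHR2, CDHR5, USH1C, MYO7B, CDH17 and ANPEP. All 10 were found once each and all 10 passed the filter on low counts. ESPN passed through the LS174T libraries alone, since in all 4 KM12 libraries it stayed under 1 CPM (counts scaled to a common library total). MYO1A exceeded that level in 1 KM12 library only, at 1.11 CPM, so it too needed LS174T to pass. ANPEP passed with 2 libraries above that level.

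The RNA came from 2 lines of human colorectal cancer cells, KM12 and LS174T, each sequenced as cells in culture and as CDX tumors, which are cell line-derived xenografts grown in an animal host. The KM12 libraries carried the genotype GNAS R201H (parental) or a GNAS knockout. The LS174T libraries were all labelled GNAS R201H, with Dox (-) or Dox (+). Dox is not explained further in the labels. The 8 libraries form 8 groups of 1 library. KM12 parental and LS174T Dox (+) were coded together as the GNAS-active states, KM12 knockout and LS174T Dox (-) as the other states. No LS174T library without the R201H label was analysed here, so Dox itself and GNAS cannot be told apart in that line. The labels do not say that libraries came from separate cultures or animals, so the p-values below measure only the spread between these libraries. The number of clones behind the knockout and the host strain are not given in the sources used here.

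Microvilli are finger-like membrane protrusions, each held up by a core of bundled actin filaments. VIL1 (villin) and ESPN (espin) bundle these filaments, EZR (ezrin) and MYO1A (brush border myosin I) tie the core to the membrane, and ANPEP (aminopeptidase N) is a peptide-cutting enzyme on the surface. At the tips, the protocadherins CDHR2 and CDHR5 link neighbouring microvilli, and inside the cell the scaffold USH1C (harmonin) and the motor MYO7B hold and carry that link. CDH17 (LI-cadherin) joins the lateral membranes of intestinal cells and is a marker of intestinal tissue and of colorectal tumors.

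The bases just upstream of the starts are shown for USH1C, MYO7B and MYO1A, the 3 genes with a match to the motifs below. USH1C and MYO7B stood far higher in the KM12 knockout tumor than in its parental counterpart and MYO1A did not. CDHR2, 29.1-fold higher in that knockout tumor, held no match at its listed starts and is not shown. Whether any match bears on these levels was not tested. RefSeq, on GRCh38.p14, listed upstream bases for 6 of the members other than CDH17, with 11 starts among them. The 250 bases before each start were searched on both strands for 6 motifs: TTTATNG and TTTATNA (the form bound by CDX factors), CAAAGTCCA and CAAAGGTCA (HNF4), TATAAA and the cAMP response element TGACGTCA. The last was added after the data were seen. TATAAA can overlap TTTATNA and TTTATNG on the opposite strand. The sequences run 5′ to 3′ on the gene's strand, with motif matches in capitals.
USH1C (chr11:17533886-17534005, minus strand): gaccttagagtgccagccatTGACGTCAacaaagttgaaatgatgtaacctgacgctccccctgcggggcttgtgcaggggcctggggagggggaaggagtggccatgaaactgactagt
MYO7B (chr2:127535563-127535682, plus strand): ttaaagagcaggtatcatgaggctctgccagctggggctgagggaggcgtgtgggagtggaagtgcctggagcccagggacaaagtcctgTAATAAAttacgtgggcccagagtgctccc
MYO1A (chr12:57051199-57051318, minus strand): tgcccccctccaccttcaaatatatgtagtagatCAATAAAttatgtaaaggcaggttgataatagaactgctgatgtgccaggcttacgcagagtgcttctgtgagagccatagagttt
MYO1A (chr12:57050141-57050360, minus strand): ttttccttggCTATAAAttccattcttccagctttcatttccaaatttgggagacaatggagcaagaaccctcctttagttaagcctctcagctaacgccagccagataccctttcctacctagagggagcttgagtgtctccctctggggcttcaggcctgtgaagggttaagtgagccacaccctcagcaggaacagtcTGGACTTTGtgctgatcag

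The USH1C window held TGACGTCA from 100 to 93 bases before the start, a motif present upstream of 1.65% of the 35116 listed starts. The MYO7B window held TAATAAA, which is TTTATNA on the other strand (11.2% of starts). MYO1A held TTTATNG before both of its starts (8.93% of starts) and CAAAGTCCA before the inner start (0.325%). The MYO1A inner match, CTATAAA, also holds TATAAA (10.7% of starts). Another MYO7B start held TTTATAA and an overlapping TATAAA match. The other USH1C start, and the starts of CDHR2, EZR and ANPEP, held none of these 6 motifs. The counts are per gene, so they do not show which start was used, and a match is only a string of letters. VIL1, ESPN and CDHR5 were not in that table.

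Total counts ran from 15924846 to 37735085 a library, so 1 count equals 0.0293 to 0.0573 CPM. CPM values are scaled by TMM factors. Counting intervals below cover counting error only, and with 1 library a group no single pair has a replicate check. GNAS itself, the altered gene, was 3.76 times as high in parental as in knockout KM12 culture but 1.54 times in the tumors. In LS174T, Dox (+) stood at 2.52 times Dox (-) in culture and 1.18 times in tumors. The epithelial markers summed to between 5300 and 25300 CPM in every library. Fibroblast markers summed to 264 CPM in the KM12 parental tumor, of which COL3A1 gave 220, and to at most 13.1 CPM in the other 7 libraries. Leukocyte markers summed to 769 CPM in the KM12 knockout tumor, of which LYZ, also made by gut epithelium, gave 766. LYZ also read 267 and 312 CPM in KM12 parental and knockout culture, and 244 CPM in the parental tumor. TYROBP had no count in any library, and PTPRC read at most 0.0407 CPM. CD14 read 1.69 and 1.46 CPM in LS174T Dox (-) and Dox (+) culture and 7.36 and 4.46 CPM in the matching tumors. In KM12 CD14 read at most 0.194 CPM. Endothelial markers summed to 1.82 to 17.0 CPM in cultures and 1.71 to 7.05 CPM in tumors, with ESAM the highest of them. Among them, CDH5 read at most 0.0293 CPM in cultures and 0.448 to 1.02 CPM in tumors. How mouse reads were handled is not given in the sources used here, and the part these markers play in the results below was not tested.

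**Figure D1:**
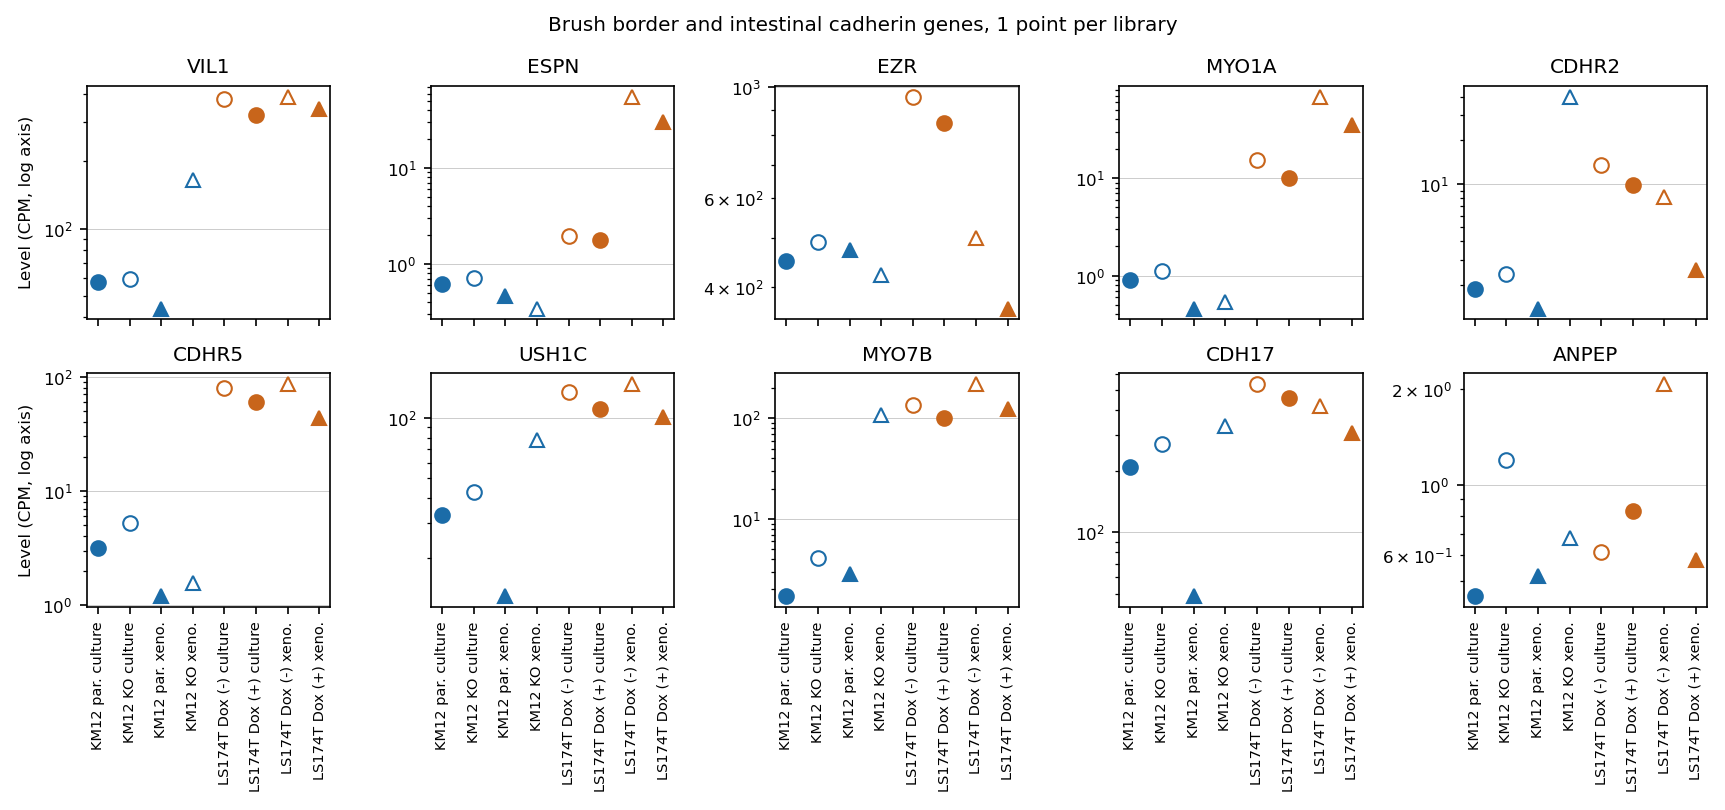
Level of each gene (CPM, log axis) in each of the 8 libraries. Blue marks KM12, orange LS174T, circles cultures, triangles xenografts, and filled symbols KM12 parental or LS174T Dox (+). In the KM12 knockout xenograft MYO7B reached 108 CPM against 1.72 to 4.13 CPM in the other KM12 libraries, while CDHR5 stood at 1.55 CPM.

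Of the 4 tip complex genes among the members, 3 were many times higher in the KM12 knockout xenograft than in the parental one. The fourth, CDHR5, was not, at 21 counts in the parental and 32 in the knockout xenograft. Over all genes 6.35% were at least 2-fold lower in the parental xenograft. MYO7B, the motor of the complex (ENSG00000169994.17, chromosome 2, 127535802 to 127637729, plus strand), stood at 1.72 CPM in KM12 parental culture, 4.13 in knockout culture, 2.87 in the parental xenograft and 108 in the knockout xenograft. In LS174T it read 135 and 101 CPM in Dox (-) and Dox (+) culture and 219 and 125 CPM in the matching xenografts. The KM12 knockout xenograft thus lay inside the LS174T range, and the other 3 KM12 libraries lay far below it. Within the KM12 tumors the knockout was 37.7-fold higher (95% counting interval 28.5 to 50.9), and its parental-to-knockout log2 ratio ranked 11 from the lowest of 16070 genes. In such bulk samples, fewer cells of a type and less RNA per cell cannot be told apart.

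CDHR2, a tip-link protocadherin (ENSG00000074276.9, chromosome 5, 176542511 to 176595974, plus strand), read 1.89, 2.37, 1.38 and 40.1 CPM in KM12 parental culture, knockout culture, parental xenograft and knockout xenograft. In LS174T it read 13.6, 9.81, 8.18 and 2.52 CPM in Dox (-) culture, Dox (+) culture, Dox (-) xenograft and Dox (+) xenograft. The knockout xenograft had the highest value of all 8 libraries, above all LS174T libraries. Its excess over the parental xenograft was 29.1-fold (19.4 to 45.7). The opposite-strand gene GPRIN1 overlaps CDHR2, and no strand setting is given in the sources used here, so their reads cannot be told apart. GPRIN1 read 29.1 CPM in the knockout and 7.57 CPM in the parental xenograft.

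CDHR5, the partner protocadherin (ENSG00000099834.17, chromosome 11, 616565 to 626078, minus strand), read 3.20 and 5.24 CPM in parental and knockout KM12 culture and 1.20 and 1.55 CPM in the tumors. In LS174T it read 80.1 and 60.5 CPM in Dox (-) and Dox (+) culture and 86.3 and 43.3 CPM in the tumors. All LS174T values lay far above all KM12 values. The knockout-to-parental ratio in the KM12 tumors was 1.29 (0.721 to 2.35), an interval that includes 1 and excludes the fold seen for CDHR2.

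USH1C, the harmonin scaffold (ENSG00000006611.14, chromosome 11, 17493895 to 17544416, minus strand), read 33.0 and 42.7 CPM in parental and knockout KM12 culture, then 12.9 and 78.2 CPM in the tumors. LS174T gave 135 and 111 CPM in Dox (-) and Dox (+) culture and 148 and 102 CPM in the tumors. The lines did not overlap, and the knockout tumor was the KM12 library nearest to LS174T. It stood 6.06-fold (5.27 to 7.00) above the parental tumor.

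The 2 actin bundlers differed from each other. VIL1 (ENSG00000127831.9, chromosome 2, 218419092 to 218453295, plus strand) read 57.4 and 59.2 CPM in parental and knockout KM12 culture and 43.9 and 165 CPM in the tumors, 3.77-fold (3.49 to 4.08) higher in the knockout tumor. In LS174T it varied little, at 380 and 324 CPM in Dox (-) and Dox (+) culture and 390 and 342 CPM in tumors, all above the highest KM12 value. USP37 overlaps VIL1 on the opposite strand and read 11.8 to 21.6 CPM. It read 20.5 CPM in the KM12 parental tumor and 13.7 CPM in the knockout tumor.

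ESPN (ENSG00000187017.13, chromosome 1, 6424776 to 6461367, plus strand) was close to absent in KM12, at 0.619, 0.703, 0.459 and 0.340 CPM, with at most 24 counts. LS174T cultures held 1.93 and 1.76 CPM in Dox (-) and Dox (+), and the matching tumors 55.8 and 30.2 CPM. The LS174T tumors thus stood apart from all 6 other libraries. ESPN overlaps TNFRSF25 on the opposite strand, which read 6.39 to 32.0 CPM, and has a copy, ESPNP, which read up to 7.34 CPM in the KM12 parental tumor. ESPN values are therefore uncertain.

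Of the pair that ties the core to the membrane, EZR varied least of all members and MYO1A was above 2 CPM in LS174T libraries only. EZR (ENSG00000092820.16, chromosome 6, 158765741 to 158819412, minus strand) read 451, 492, 473 and 423 CPM in KM12 parental culture, knockout culture, parental tumor and knockout tumor. In LS174T it read 956 and 845 CPM in Dox (-) and Dox (+) culture and 499 and 362 CPM in tumors. The LS174T cultures were the high libraries, and the LS174T tumors overlapped KM12. MYO1A (ENSG00000166866.11, chromosome 12, 57028517 to 57051198, minus strand) read 0.894, 1.11, 0.459 and 0.534 CPM in KM12, in the same order. In LS174T it read 15.2 and 10.1 CPM in Dox (-) and Dox (+) culture and 68.5 and 35.4 CPM in tumors. TAC3 overlaps MYO1A on the same strand and read at most 0.573 CPM, in the KM12 parental tumor, where MYO1A read 0.459 CPM.

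CDH17 (ENSG00000079112.8, chromosome 8, 94127171 to 94217303, minus strand) read 209 and 272 CPM in parental and knockout KM12 culture, and 48.6 and 331 CPM in the tumors. In LS174T it read 534 and 453 CPM in Dox (-) and Dox (+) culture and 416 and 306 CPM in tumors. The parental KM12 tumor was the low library, and the knockout tumor overlapped LS174T. The KM12 tumors differed by 6.82-fold (6.35 to 7.33).

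ANPEP (ENSG00000166825.12, chromosome 15, 89784889 to 89815401, minus strand) was barely detected. It read 0.447 to 1.20 CPM in KM12 and 0.582 to 2.08 CPM in LS174T, the highest in the Dox (-) tumor with 51 counts. The lines overlapped. The GNAS-active member of the pair read lower in KM12 culture, at 0.372 (0.183 to 0.708) of the knockout, and in LS174T tumors, at 0.281 (0.136 to 0.533) of Dox (-), and counting intervals for the other 2 pairs included 1.

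The first comparison asked how these genes differ between the GNAS states. Across the 4 pairs, 7 of the 10 members (VIL1, MYO1A, CDHR2, CDHR5, USH1C, MYO7B and CDH17) read lower in the GNAS-active library in 4 of 4 pairs, against 8.01% of the 16070 genes tested. The exceptions were EZR and ESPN, higher in parental KM12 tumors, and ANPEP, higher in LS174T Dox (+) culture. The members were picked with earlier results of these data known, so this count is a description. The fitted log2 difference was below 0 for 10 of 10 members (47.4% of all genes), with a median of -0.74 against 0.01 over all genes. In edgeR's quasi-likelihood test, adjusted by Benjamini-Hochberg over all genes, 0 of 10 members passed, and 0 of all genes (0.0%). DESeq2 and limma-voom called 0 members too.

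Before adjustment 2 members, CDHR5 and MYO1A, were below 0.05 in edgeR, both lower, against 4.0% of all genes in that direction and 2.08% in the other. Their log2 differences, with the SE over the 4 pairs, were -0.66 ± 0.14 for CDHR5 and -0.63 ± 0.17 for MYO1A (edgeR adjusted p = 0.776 each). The largest fitted differences were far less even across pairs: CDHR2 at -1.66 ± 0.85 (adjusted p = 0.776) and MYO7B at -1.64 ± 0.96 (adjusted p = 0.794). CDH17 stood at -0.90 ± 0.50, USH1C at -0.89 ± 0.44, ANPEP at -0.82 ± 0.46, VIL1 at -0.57 ± 0.34, ESPN at -0.38 ± 0.24 and EZR at -0.15 ± 0.11. Each SE was derived from the F statistic. Without the KM12 tumor pair the differences were smaller for VIL1 (-0.16), CDHR2 (-0.81), USH1C (-0.40), MYO7B (-0.74) and CDH17 (-0.35), and MYO1A (-0.70) and CDHR5 (-0.70) changed little.

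**Figure D2:**
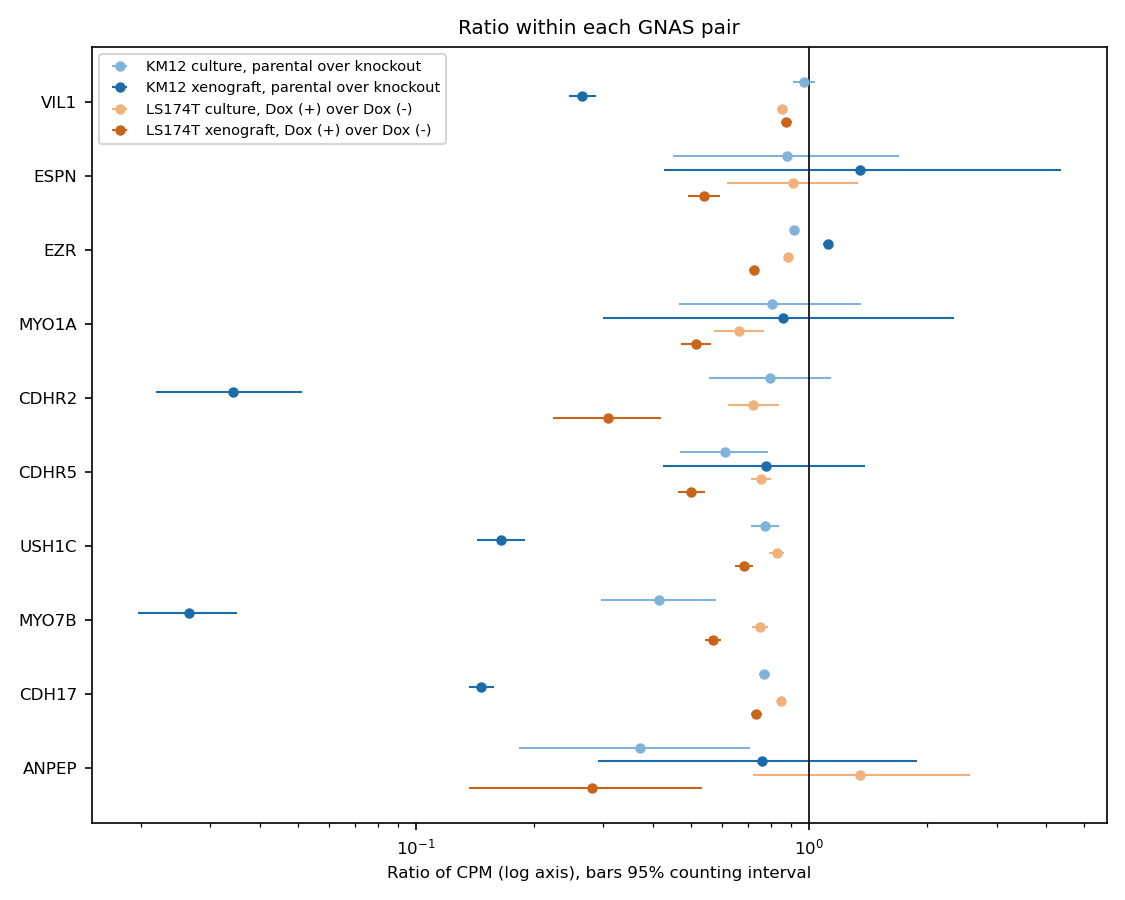
Ratio of CPM, GNAS-active over the other library, in each of the 4 pairs (log axis; points are single pairs, bars 95% counting intervals). The KM12 tumor pair lies far to the left for MYO7B (0.0265), CDHR2 (0.0343), CDH17 (0.147), USH1C (0.165) and VIL1 (0.265), and the LS174T pairs lie between 0.281 and 1.35.

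In the KM12 tumors 5 of 10 members (VIL1, CDHR2, USH1C, MYO7B and CDH17) were at least 2-fold lower in the parental library, and none at least 2-fold higher. Over all genes 6.35% were at least 2-fold lower and 7.13% higher in that pair. KM12 cultures showed 2 members at least 2-fold lower (MYO7B and ANPEP; 1.79% of genes). MYO7B was 2.40-fold (1.73 to 3.39) higher in knockout culture. In KM12 cultures the intervals for VIL1, ESPN, MYO1A and CDHR2 included no difference, and CDH17 was 1.30-fold (1.26 to 1.34) and USH1C 1.29-fold (1.19 to 1.41) higher in the knockout.

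In LS174T culture 0 of 10 members were at least 2-fold lower with Dox (+) (1.43% of genes), the largest being MYO1A, 1.5-fold (1.30 to 1.74) higher in Dox (-). In LS174T tumors CDHR2 and ANPEP were at least 2-fold lower with Dox (+) (5.2% of genes) and 0 members at least 2-fold higher (3.91%). There, CDHR2 was 3.24-fold (2.38 to 4.49) higher in Dox (-), CDHR5 1.99-fold (1.84 to 2.16), MYO1A 1.93-fold (1.77 to 2.11), ESPN 1.85-fold (1.68 to 2.04) and MYO7B 1.76-fold (1.68 to 1.84). VIL1 differed least, 1.14-fold (1.11 to 1.18).

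Fitted within each line, the GNAS effect called 0 of 10 members in KM12 (0.0124% of genes) and 0 of 10 in LS174T (0.0%), by edgeR's quasi-likelihood test. At an unadjusted p below 0.05 there was 1 member in KM12, CDHR5 (3.27% of genes lower), and 2 in LS174T, MYO1A and CDHR5 (3.15%), and DESeq2 and limma-voom called 0 members in both lines. The median over members was -0.97 in KM12 and -0.59 in LS174T. The difference between the lines was tested directly and called 0 members (0.00622% of genes), with 0 members at an unadjusted p below 0.05 (2.66% of genes higher and 1.38% lower) and 0 called by DESeq2 or limma-voom. For MYO7B this difference, KM12 minus LS174T, was -2.82 ± 1.64 (edgeR adjusted p = 0.965). Without the KM12 culture pair, which leaves the single KM12 tumor pair against the spread in LS174T, 5 members and 1226 genes passed in KM12, and 5 members and 747 genes in the difference. On the culture pairs alone, edgeR called 3 members, all lower in the GNAS-active state (1.26% of genes): CDHR5 (-0.50 ± 0.12, adjusted p = 0.0111), CDH17 (-0.31 ± 0.08, adjusted p = 0.0151) and USH1C (-0.32 ± 0.09, adjusted p = 0.040). On the tumor pairs alone it called 0 members (0.0311% of genes lower). Both of these fits rest on 2 pairs, so their p-values lean on the spread shared over genes.

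The second comparison asked how growth as a tumor differs from growth in culture. In LS174T tumors ESPN was 17.2-fold (13.0 to 23.2) higher than in culture with Dox (+) and 28.9-fold (22.4 to 37.8) with Dox (-). MYO1A was 3.50-fold (3.06 to 4.02) and 4.51-fold (4.08 to 4.99) higher in the same pairs. In KM12 both genes were at or below their culture level in both tumors, ESPN at 0.741 (0.279 to 1.79) and 0.483 (0.176 to 1.16) of culture. EZR was lower in LS174T tumors, at 0.429 (0.418 to 0.440) and 0.522 (0.512 to 0.533) of culture, and close to culture in KM12, at 1.05 and 0.859.

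By pair, 0 members were at least 2-fold higher and 3 at least 2-fold lower in the KM12 parental tumor (16.6% and 8.36% of all genes), and 3 and 1 in the KM12 knockout tumor (14.7% and 9.52%). In LS174T the counts were 2 and 2 with Dox (+) (19.8% and 11.0%) and 3 and 0 with Dox (-) (21.3% and 13.9%). The third gene in the Dox (-) pair was ANPEP, 3.38-fold (1.98 to 5.99) higher in the tumor.

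Across the 4 pairs no member passed (edgeR quasi-likelihood, Benjamini-Hochberg adjusted), against 26.1% of all genes (12.6% higher and 13.5% lower in tumors), and 0 members had an unadjusted p below 0.05 (21.3% of genes higher and 21.2% lower). DESeq2 called 0 members and limma-voom 2. Only MYO7B was higher in the tumor in 4 of 4 pairs, as were 23.9% of all genes. Its log2 difference was 1.43 ± 0.80 (adjusted p = 0.223). Members went both ways, 5 above and 5 below 0 (50.8% and 49.2% of genes). Within LS174T, edgeR on 2 pairs called ESPN (4.49 ± 0.24, adjusted p = 2.27e-16), MYO1A (2.00 ± 0.19, adjusted p = 1.19e-10) and MYO7B (0.50 ± 0.16, adjusted p = 0.00852) higher, in a fit that called 27.9% of all genes higher. It called CDHR2 (-1.30 ± 0.30, adjusted p = 6.92e-04), EZR (-1.08 ± 0.18, adjusted p = 5.06e-06) and CDH17 (-0.46 ± 0.17, adjusted p = 0.0202) lower, with 26.8% of genes. Within KM12 it called CDHR5 alone, lower in the tumors (-1.56 ± 0.40, adjusted p = 0.046, with 10.3% of genes). Each of these fits rests on 2 pairs. Their small p-values lean on the spread shared over genes and are not evidence from replicates.

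**Figure D3:**
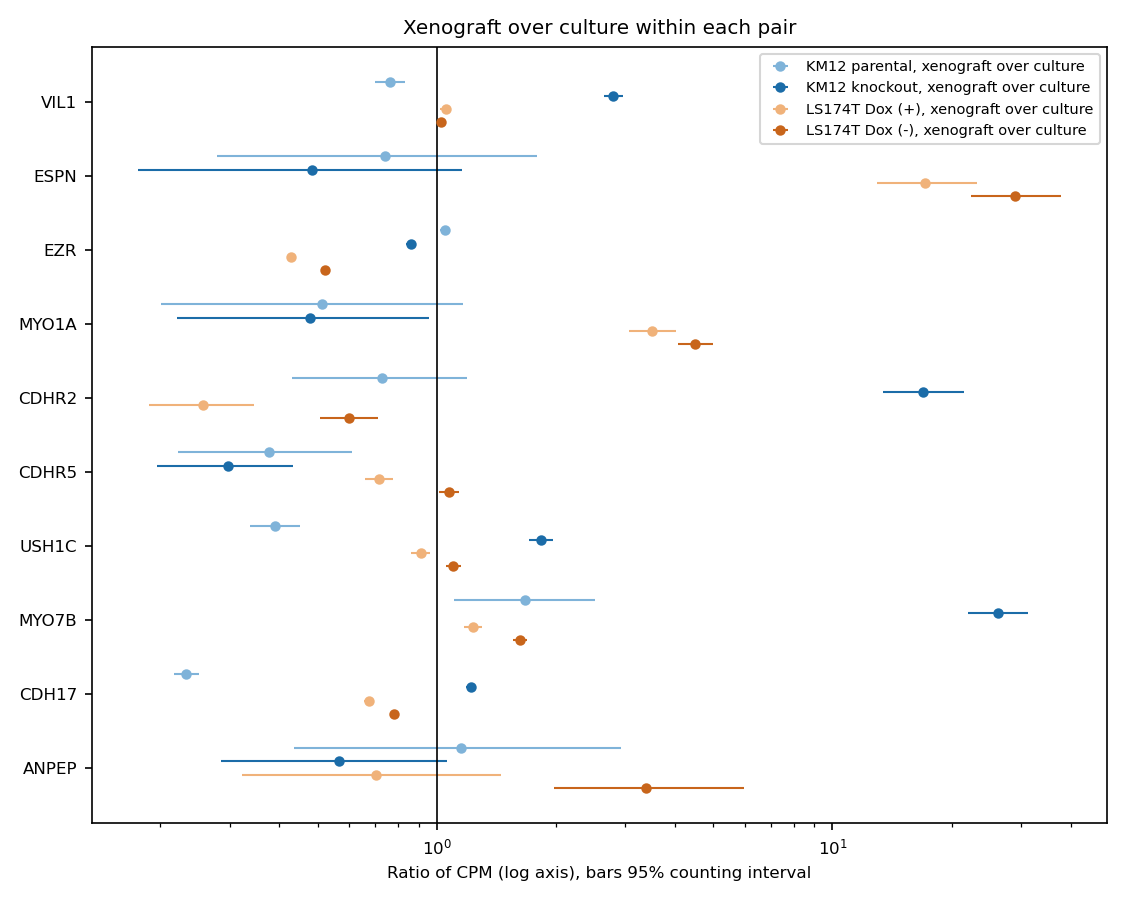
Ratio of CPM, xenograft over culture, in each of the 4 pairs (log axis; points are single pairs, bars 95% counting intervals). ESPN and MYO1A lie to the right in the LS174T pairs only, up to 28.9 and 4.51, and MYO7B and CDHR2 lie to the right most in the KM12 knockout pair, at 26.2 and 16.9.

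The tumor-against-culture difference itself differed between the lines for 4 of 10 members (edgeR quasi-likelihood, Benjamini-Hochberg adjusted; 13.7% of all genes, 7.74% higher and 5.94% lower). The value, tumor minus culture in LS174T less the same in KM12, was above 0 for ESPN (log2 difference of differences 5.22 ± 0.51, adjusted p = 0.00117), MYO1A (3.00 ± 0.38, adjusted p = 0.00299) and CDHR5 (1.41 ± 0.32, adjusted p = 0.0253). It was below 0 for EZR (-1.01 ± 0.21, adjusted p = 0.0202). ESPN and MYO1A met the low-count filter only with LS174T, the line whose tumors held them high, so their calls are a description. ESPN and MYO1A were higher in the LS174T tumors, EZR was lower in them, and the CDHR5 value goes with lower levels in the KM12 tumors. Leaving out the LS174T Dox (-) pair ended all 4 calls (adjusted p from 0.0619 to 0.226), and leaving out the Dox (+) pair ended 3, those for EZR (0.153), MYO1A (0.0513) and CDHR5 (0.0912). For CDHR2 the value was -3.43 ± 1.98 (adjusted p = 0.364), with the KM12 tumors far apart: CDHR2 was 16.9-fold (13.4 to 21.5) higher in the KM12 knockout tumor than in its culture, and 0.727 (0.431 to 1.19) of culture in the parental tumor.

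Some members lay on opposite sides of their culture level in the KM12 tumors, in single libraries with no test. CDHR2 and EZR, given above, were among them, though with library totals in place of TMM factors EZR was above culture in the knockout tumor too (log2 ratio 0.0687). CDH17 stood at 0.233 (0.216 to 0.250) of culture in the parental tumor and at 1.22 (1.18 to 1.26) in the knockout tumor. USH1C stood at 0.391 (0.337 to 0.453) and 1.83 (1.71 to 1.97), and VIL1 at 0.764 (0.700 to 0.832) and 2.79 (2.64 to 2.95). CDHR5 was lower than in culture in both, at 0.377 (0.223 to 0.609) and 0.296 (0.197 to 0.433). GNAS itself was 3.03-fold higher in the knockout tumor than in knockout culture, and its part in these values was not tested.

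The third comparison set LS174T against KM12. All 10 members had a fitted log2 difference above 0, as 49.0% of all genes did, with a median of 2.08 against -0.02 over all genes. Higher in LS174T were CDHR5 (4.72 ± 0.37, adjusted p = 0.00117), VIL1 (2.35 ± 0.31, adjusted p = 0.00499), MYO1A (4.99 ± 0.74, adjusted p = 0.00668), USH1C (1.81 ± 0.34, adjusted p = 0.013) and MYO7B (4.51 ± 0.99, adjusted p = 0.0212) (edgeR quasi-likelihood, Benjamini-Hochberg adjusted). These are 5 of 10 members, beside 16.7% of all genes called higher, 14.8% called lower and 31.5% in either direction. MYO1A met the low-count filter only with LS174T, the line where it was called higher, so its call is a description. DESeq2 and limma-voom each called 7 members. CDH17 (1.25 ± 0.39, adjusted p = 0.0573), ESPN (3.94 ± 1.31, adjusted p = 0.0708), EZR (0.43 ± 0.26, adjusted p = 0.258), CDHR2 (1.04 ± 0.95, adjusted p = 0.439) and ANPEP (0.43 ± 0.54, adjusted p = 0.579) did not pass.

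In 4 of 4 pairs 7 members were higher in LS174T (25.6% of genes): VIL1, ESPN, MYO1A, CDHR5, USH1C, MYO7B and CDH17. In culture alone 9 members, all but ANPEP, passed as higher (34.2% of genes), and in tumors alone 3, MYO1A, CDHR5 and ESPN (14.3%). MYO1A and ESPN were tested only because of their LS174T levels. In the tumors VIL1 (adjusted p = 0.0758), USH1C (0.220) and MYO7B (0.554) did not pass. In the tumors the CDHR2 value was below 0 (-0.85 ± 1.07, adjusted p = 0.655), where the KM12 knockout tumor held 40.1 CPM. MYO7B did not pass without a low-count filter (0.169) or without the Dox (+) and parental culture pair (0.071), the Dox (-) and knockout culture pair (0.0783) or the Dox (+) and parental tumor pair (0.084). CDHR2 passed without the Dox (-) and knockout tumor pair (1.97 ± 0.45, adjusted p = 0.0428).

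**Figure D4:**
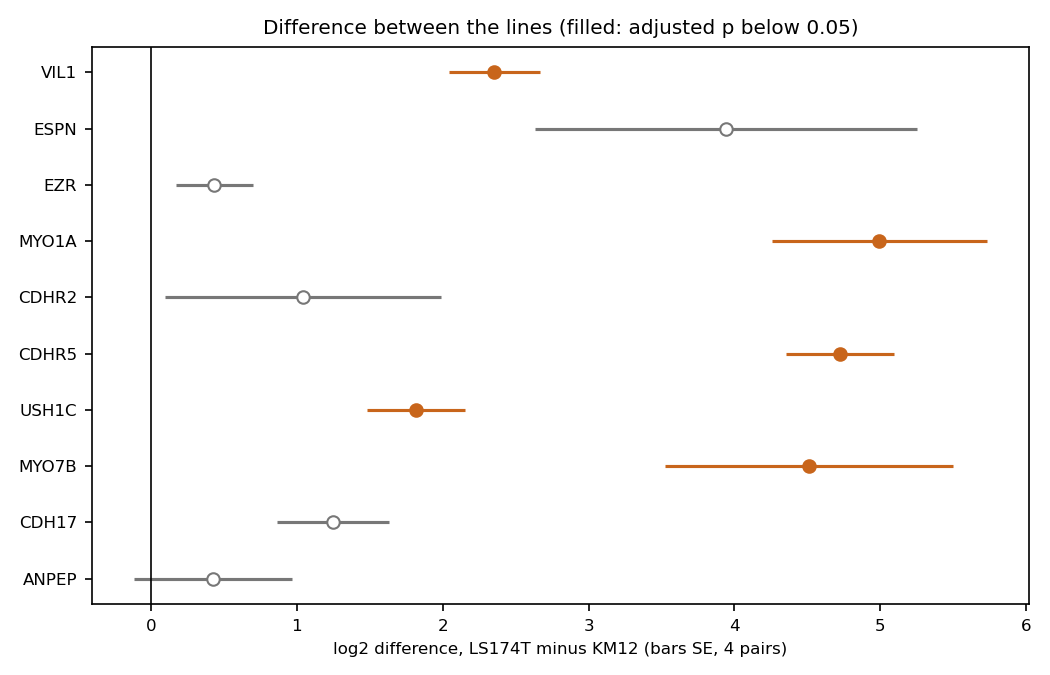
Fitted log2 difference, LS174T minus KM12, for each gene (points; bars SE, 4 pairs; filled points have an adjusted p below 0.05). All 10 points lie above 0, from 0.43 for ANPEP and EZR to 4.99 for MYO1A, and 5 are filled.

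Levels of different genes were compared per kilobase of exon. EZR was highest in 8 of 8 libraries, at 108 to 286 CPM per kb, and CDH17 the next in 8 of 8, at 12.5 to 137 CPM per kb. VIL1 and USH1C followed at 6.34 to 56.4 and 2.63 to 30.3 CPM per kb. ESPN was lowest in the 4 KM12 libraries, at 0.0489 to 0.101 CPM per kb, and ANPEP in the 4 LS174T libraries, at 0.119 to 0.426. Of the tip-link protocadherins, CDHR5 stood above CDHR2 in LS174T, at 11.2 to 22.3 against 0.472 to 2.54 CPM per kb. In the KM12 knockout tumor that order was reversed, with CDHR2 at 7.5 and CDHR5 at 0.401 CPM per kb.

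Likeness of pattern was described by Pearson's r of log2 CPM over the 8 libraries, which share lines and hosts. MYO7B and VIL1 were nearest to each other (r = 0.960), USH1C was nearest to VIL1 (0.943), CDH17 to USH1C (0.935), and MYO1A and CDHR5 to each other (0.95). ESPN was nearest to MYO1A (0.920), CDHR2 to MYO7B (0.732), ANPEP to ESPN (0.522) and EZR to CDHR5 (0.519). The tip-link partners CDHR2 and CDHR5 had r = 0.240, the lowest value that CDHR5 had with any member. Outside the members, the tested genes most like VIL1 were LINC02747 and ZNF513 (0.992 each), GJB1 (0.991), PRSS8 (0.990) and PHGR1 (0.989). Those most like CDH17 were IGF2BP3 (0.995), MYRF (0.993), S100A14 (0.985), SLC22A18AS (0.982) and RAB11FIP4 (0.974). Both lists hold the highest r among 16070 tested genes over only 8 libraries, so they are a description. LINC02747 read only 0.115 to 1.44 CPM, and the lowest values of GJB1 and SLC22A18AS were 0.0573 and 0.86 CPM.

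Of 23 listed partners of the core and tip complex, 21 were tested. For the GNAS effect 19 of the 21 lay below 0 (median -0.26), beside 47.4% of all genes, and 0 passed edgeR's test. EPS8L2, an actin-binding microvillus protein (-0.62 ± 0.14, adjusted p = 0.776), and the bundler PLS1 (-0.41 ± 0.12, adjusted p = 0.776) had the smallest p. In the KM12 tumors 4 were at least 2-fold lower in the parental library and 0 at least 2-fold higher (6.35% and 7.13% of all genes). The 4 were EPS8L3, BAIAP2L2, CALML4 and ANKS4B, named after their values were seen. CALML4 and ANKS4B, known partners of MYO7B and USH1C in the tip complex, read 8.08 against 30.9 CPM and 9.29 against 33.2 CPM in the parental and knockout tumors. EPS8L3 read 8.66 against 96.2 CPM.

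In the tumors 5 of these 21 fell across the 4 pairs and 0 rose, beside 13.5% and 12.6% of all genes. COBL, an actin nucleator (-1.0 ± 0.12, adjusted p = 0.0098), NHERF1, a scaffold that binds ezrin (-1.03 ± 0.12, adjusted p = 0.0098), MISP (-1.28 ± 0.22, adjusted p = 0.016) and the vesicle GTPase RAB8A (-0.79 ± 0.14, adjusted p = 0.0178) led in edgeR. Between lines 9 of 21 were higher and 2 lower in LS174T (16.7% and 14.8% of all genes), led by EPS8L2 (2.95 ± 0.17, adjusted p = 5.29e-04), NHERF1 (1.61 ± 0.11, adjusted p = 6.83e-04), CLIC5 (3.71 ± 0.36, adjusted p = 0.00198) and NHERF2 (2.63 ± 0.33, adjusted p = 0.00397).

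Of 29 brush border enzymes and transporters 20 were tested. For the GNAS effect 17 of 20 lay below 0 (median -0.40), beside 47.4% of all genes, and 0 passed. GGT1 (-0.71 ± 0.21, adjusted p = 0.776) and the glucose transporter SLC5A1 (-0.66 ± 0.25, adjusted p = 0.776) had the smallest p in edgeR. In the KM12 tumors 6 of 20 were at least 2-fold lower and 2 at least 2-fold higher in the parental library (6.35% and 7.13% of all genes). Across environments 2 of 20 rose and 2 fell in tumors, beside 12.6% and 13.5% of all genes. The sodium-proton exchanger SLC9A3 (-3.56 ± 0.27, adjusted p = 0.00789) and the peptidase DPP4 (-1.11 ± 0.21, adjusted p = 0.0195) fell, and AMN (1.84 ± 0.30, adjusted p = 0.0154) and the fructose transporter SLC2A5 (2.24 ± 0.45, adjusted p = 0.0282) rose, by edgeR. SLC9A3 and SLC2A5 read at most 0.172 CPM in KM12, so their values rest almost wholly on the LS174T pairs and do not describe KM12. Between lines 8 of 20 were higher and 4 lower in LS174T (16.7% and 14.8% of all genes). Of those higher, SLC9A3, MME, TREH, SLC2A5, SLC3A1 and SLC6A19 stayed under 1 CPM in all KM12 libraries. They passed the low-count filter through LS174T alone, the line where they were high. LCT and MGAM, called lower, stayed under 1 CPM in all LS174T libraries and passed through KM12 alone. These counts are therefore a description. SLC9A3, MME and SLC2A5, each at most 0.172 CPM in KM12, reached 99.8, 69.1 and 12.0 CPM in LS174T, and DPP4 went the other way (-3.40 ± 0.28, edgeR adjusted p = 0.00135).

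Of 29 relatives of the members (other villins, myosins, bundlers, ezrin kin and cadherins) 23 were tested. For the GNAS effect 15 of 23 lay below 0 (median -0.10), beside 47.4% of all genes, and 0 passed. The villin-like VILL (-0.76 ± 0.15) and E-cadherin CDH1 (-0.45 ± 0.11) had the smallest p (edgeR adjusted p = 0.776 each). In tumors the bundler FSCN1 (-2.04 ± 0.22, adjusted p = 0.00968) and MYO10 (-0.69 ± 0.13, adjusted p = 0.0183) fell and 0 rose, by edgeR, beside 13.5% and 12.6% of all genes. Between lines 6 of 23 were higher and 1 lower in LS174T (16.7% and 14.8% of all genes), led by CDH3, P-cadherin (-3.16 ± 0.23, adjusted p = 9.77e-04), WHRN (2.39 ± 0.19, adjusted p = 0.00117), FSCN1 (2.55 ± 0.24, adjusted p = 0.00194) and CDHR1 (adjusted p = 0.00625), which read at most 0.0879 CPM in KM12 and up to 46.0 CPM in LS174T. The ezrin relatives MSN and RDX read at most 2.24 and 0.172 CPM in KM12. CDHR1 and RDX thus passed the low-count filter through LS174T alone, the line where they were called higher.

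Of 16 intestinal transcription factors 15 were tested. For the GNAS effect 12 of 15 lay below 0 (median -0.08), beside 47.4% of all genes, and 0 passed. KLF4 (-0.60 ± 0.13) and ELF3 (-0.62 ± 0.15) had the smallest p (edgeR adjusted p = 0.776 each). In tumors ELF3 (1.18 ± 0.30, adjusted p = 0.0387) rose and PRDM1 (-2.14 ± 0.29, adjusted p = 0.0118) fell, by edgeR. Higher in LS174T than in KM12 were CDX2 (1.88 ± 0.31, adjusted p = 0.00881) and ISX (adjusted p = 0.0123, at most 0.205 CPM in KM12), by edgeR. ISX thus passed the low-count filter through LS174T alone. CDX1 read 10.9 CPM in the parental and 74.2 CPM in the knockout KM12 tumor, while HNF4A read 137 and 161 CPM.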

How the data were processed

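The deposited values are raw read counts, 1 column a library for 8 libraries, against human gene identifiers. Per the submitters' processing notes, the authors used STAR 2.7.2b and HTSeq 0.11.0 and named hg38 and GRCm39. The annotation release, strand setting and handling of mouse reads are not given in the sources used here. Gene positions and exon lengths came from GENCODE release 29 on GRCh38, and symbols from a table that named 56321 genes. The filter kept the 16070 genes that reached 1 CPM in 2 or more libraries, and TMM factors were computed on them. Tests were edgeR 4.0.16 quasi-likelihood F tests in R 4.3.3, with the other factors' combinations as blocks, so that each effect rests on 4 matched pairs, adjusted by Benjamini-Hochberg over all genes at a threshold of 0.05. The 4-pair fits have 3 residual degrees of freedom and the fits with line-specific effects 2. Fits on 2 pairs alone have fewer still, so their p-values lean on the spread shared over genes. Single pairs were described by CPM ratios with exact conditional intervals (95%) and log2 ratios with a prior count of 2. DESeq2 1.42.0, limma-voom 3.58.1, other size factors, no filter, an additive model, subsets and leaving out each pair were alternatives. The GNAS, environment and line fits were also run on simulated counts, with an outcome not reported here. Those counts had the same spread for every gene and the same effect in every pair, unlike these data. The line-specific, difference and 2-pair fits were not simulated. The members and gene lists were chosen with earlier results of these data known. The genes named by rule were all members, for each list up to 4 genes past the test or otherwise the 2 with the smallest p, and the 5 genes most like VIL1 and CDH17. Genes named outside that rule include EPS8L3, BAIAP2L2, CALML4, ANKS4B, MSN, RDX, CDX1 and HNF4A. They also include TREH, SLC3A1, SLC6A19, LCT and MGAM, the overlapping genes and the cell type markers. Some genes of the transcription factor list, and 1 motif, are not reported here.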

Additional observations from a re-analysis of the deposited data

Results flagged for a closer look

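For 5 results the members differed between groups. The tumor-against-culture difference differed between LS174T and KM12, by a direct test of that difference, for ESPN (log2 difference of differences 5.22), EZR (-1.01), MYO1A (3.00) and CDHR5 (1.41), with edgeR adjusted p from 0.00117 to 0.0253. Leaving out the LS174T Dox (-) pair ended all of these calls. ESPN and MYO1A were tested only because of their LS174T levels, so their calls are a description. ESPN values are also uncertain because of its overlapping gene and its copy. USH1C was lower in the tumor in both GNAS-active pairs (mean log2 ratio -0.74) and higher in both other pairs (0.51), a difference that was not tested. With library totals in place of TMM factors its LS174T Dox (+) pair turned to 0.11.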

How the results depend on the processing

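Of the values per member, 106 of 110 kept their direction and side of the threshold across alternatives for the GNAS effect, 87 of 110 for the environment and 89 of 110 for the line, and the cause of each change was not tested. Members called for the GNAS effect were 1 without a filter (281 genes) and 3 on culture pairs (273 genes); DESeq2 called 57 genes and the tumor pairs 10. For the environment, members called were 2 with limma-voom, 1 on KM12 pairs and 6 on LS174T pairs (8767 genes), and for the line 9 on culture pairs (10896 genes) and 3 on tumor pairs. Genes called for the GNAS effect in KM12 were 365 without a filter, 65 with DESeq2 and 0 with limma-voom, in LS174T 101 without a filter and 13 with DESeq2, and for their difference 123, 5 and 0. The environment difference between lines called 3428 genes without a filter. In single tumor-to-culture pairs, 3 members were at least 2-fold lower in KM12 knockout with a prior count of 0.5, and 1 in LS174T Dox (+) with library totals.

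Directions turned in these cases. The environment value was 0.60 for CDHR2 and 0.01 (0.0108) for USH1C with limma-voom, 0.30 for CDHR2 in the additive model, -0.71 for ESPN, -0.98 for MYO1A, 2.10 for CDHR2 and -0.35 for ANPEP on KM12 pairs, and 0.00251 for USH1C on LS174T pairs. The line value was -0.15 for ANPEP on culture pairs and -0.03 (-0.0321) for EZR and -0.85 for CDHR2 on tumor pairs. The GNAS effect in KM12 was -0.0152 for ESPN and -0.0296 for EZR without a filter. The environment difference was -0.0332 for USH1C with limma-voom. With library totals the tumor-to-culture value was 0.0687 for EZR in KM12 knockout and 0.108 for USH1C in LS174T Dox (+).

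Leaving out 1 pair gave 0 to 1 genes for the GNAS effect, 11 to 2659 for the environment, 2735 to 4236 for the line, 0 to 1226 genes and 0 to 5 members for the GNAS effect in KM12, 0 to 59 genes in LS174T, 0 to 747 genes and 0 to 5 members for their difference, and 97 to 2950 genes and 0 to 8 members for the environment difference. Environment values then ran from -0.09 (-0.0902) to 0.52 for VIL1, -1.06 to 0.75 for CDHR2, -0.43 to 0.29 for USH1C and -0.40 to 0.52 for ANPEP. The GNAS effect ran from -0.18 to 0.41 (0.415) for ESPN and -0.13 to 0.15 for EZR in KM12, and -1.83 to 0.43 for ANPEP in LS174T. Its difference between lines ran from -1.40 to 0.86 for ANPEP, -3.85 to 0.70 for CDHR2, -0.18 to 0.41 for CDHR5, -2.19 to 0.0396 for USH1C and -1.71 to 0.17 for VIL1. The environment difference ran from -0.13 to 2.11 for ANPEP, -0.75 to 1.64 for CDH17, -0.87 to 1.36 for USH1C and -1.43 to 0.45 for VIL1. The labels carry no replicate numbers, so no block by replicate was fitted, and the matched pairs were blocks in every fit except the additive model. ESPN, MYO1A and ANPEP had as few as 7, 8 and 9 counts in a library, which limits their ratios.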
